A study of Rattus norvegicus with 5 samples.

Results

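The enzymes of amino acid breakdown and interconversion were followed here as 39 listed genes, of which 37 had a probe set that the array's annotation pairs with that gene alone. Aldh4a1, which completes proline breakdown, and Acad8, of valine breakdown, had no such probe set. The 37 genes are compared with the 14506 genes that had one, each represented by its brightest probe set, and with all 29215 probe sets.

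The kidney tubule is a main site of amino acid metabolism. Proximal tubular cells reclaim filtered amino acids and convert many of them: they make arginine and the creatine precursor guanidinoacetate, cleave glycine, oxidise branched-chain and aromatic amino acids, run the kynurenine route of tryptophan, and form dopamine from L-DOPA. Much of this machinery sits in mitochondria, some in the cytosol, and the oxidases of D-amino acids and hydroxy acids in peroxisomes.

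The cells were proximal tubular cells taken from Sprague-Dawley rat kidney, and all 5 arrays came from animals with type I diabetes. Cells were kept for 2 h with C-peptide, the peptide cleaved from proinsulin (3 arrays), or without it (2 arrays), and within a group the labels number the animals, 1 to an array. The labels do not state how the diabetes was induced, the dose of C-peptide or the animals' age. The comparison asks how C-peptide alters transcription within hours.

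Values below are PLIER probe-set intensities after quantile normalisation, always in the order C-peptide animals 1, 2 and 3, then untreated animals 1 and 2. Differences are C-peptide minus untreated on the log2(intensity + 16) scale with their standard error from limma, a scale that understates changes of dim probe sets. Intensities of different probe sets are not compared with each other. As deposited, array medians ran from 60.1 to 95.9. All 15 measured proximal tubule markers, among them the phosphate transporter Slc34a1 and the receptor megalin (Lrp2), were brighter than the median probe set, but so were all 11 endothelial markers and 11 of 12 immune cell markers. In bulk RNA fewer cells of a type and less RNA per cell cannot be told apart.

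Of the 37 enzymes, 36 had a positive difference (97.3%), all but Hpd, as did 53.6% of all probe sets and 55.1% of genes brighter than the median probe set. None passed adjusted p 0.05 in either direction, where 0.0% of all probe sets were called as higher and 0.0% as lower. The largest difference was that of Hgd, of tyrosine breakdown, at 1.75-fold. The median difference was 0.39, a 1.31-fold higher intensity, where all probe sets had a median of 0.02 and genes brighter than the median probe set 0.03. At unadjusted p under 0.05, 16 of the 37 were higher (43.2%) and 0 lower. The same threshold took 5.06% of all probe sets as higher and 6.31% as lower, and 7.58% and 9.2% of genes brighter than the median probe set. In 26 genes (70.3%) every C-peptide array lay above both untreated arrays, which held for 16.1% of all probe sets and 22.2% of the bright genes. As deposited, that separation held only for Miox, Hgd, Fah, Shmt1, Oat, Ddo, Ddc, Kmo, Kynu, Haao, Pcca and Aass. The shares of all probe sets and of bright genes are of normalised values, and none is given for the values as deposited. In 1 enzyme, Hpd, every C-peptide array lay below both, as in 13.8% of all probe sets and 17.6% of the bright genes. The groups of Hpd overlapped as deposited.

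The count of 16 depended on scale and on single arrays. In the values as deposited, where the median of all probe sets was -0.13, 1 enzyme (Hgd) was past unadjusted p 0.05, 31 lay above 0 (all but Hpd, Dmgdh, Bckdha, Hibch, Gpt and Got1), and 193 of the 2058 probe sets past that threshold were higher, against 1478 of 3321 after quantile normalisation. The count was 9 without C-peptide animal 3, where 3.89% of all probe sets were higher at that threshold. It was 13 without C-peptide animal 1, where 5.06% were, and 21 without C-peptide animal 2, where 5.38% were. Miox, Hgd, Fah, Oat, Kmo and Ivd were past unadjusted p 0.05 whichever array was left out.

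**Figure D1:**
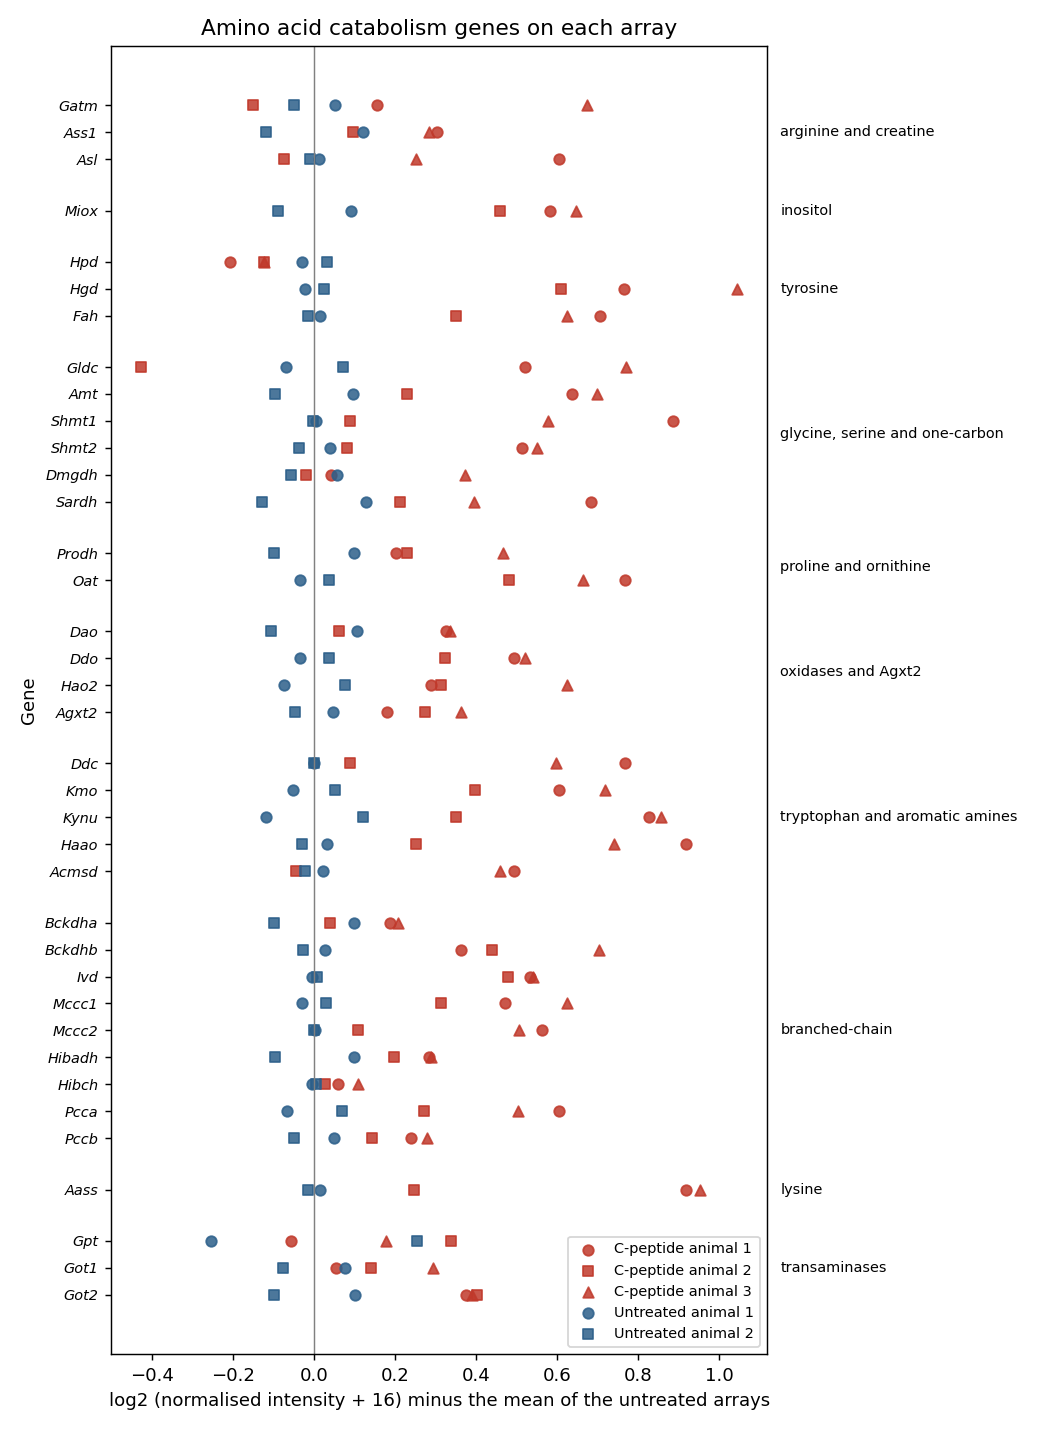
Log2(normalised intensity + 16) of the 37 measured enzymes on each of the 5 arrays, minus the mean of the untreated arrays, grouped by pathway. Red marks are C-peptide arrays and blue marks untreated arrays, with the shape giving the animal number; in 26 genes all red marks lie to the right of both blue ones, and C-peptide animal 2 (red squares) is the lowest red mark in 29 genes.

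Tyrosine breakdown held both the largest difference and the only lower gene. Hgd, homogentisate dioxygenase, which opens the aromatic ring, read 1373, 1229.7 and 1669 with C-peptide and 788 and 815 untreated. Its lowest C-peptide array was well above its higher untreated array, and the group means were 1424 ± 224 (SD, n = 3) and 801 ± 18.8 (SD, n = 2). The difference was 0.81 ± 0.17 (adjusted p = 0.156), with a 95% interval of 0.41 to 1.20. This adjusted p was 0.0363 when probe sets brighter than the median alone were tested, where 0.527% of probe sets were called as higher. It was 0.0370 among those with 1 gene symbol, where 0.411% were. Limma was refitted in both settings, with an unadjusted p of 0.00068 and 0.00064 for Hgd, against 0.0018 with all probe sets. Fah, fumarylacetoacetate hydrolase, the last step, read 649, 504 and 613 against 396 and 388, without overlap, at 0.56 ± 0.16 (adjusted p = 0.261). Hpd, the dioxygenase that forms homogentisate and so acts just before Hgd, read 5741, 6077 and 6077 against 6490.0 and 6769.6. Here each C-peptide array was below both untreated arrays, at -0.15 ± 0.13 (adjusted p = 0.725). The difference of Hpd was 0.05 when each array was centred on its median. As deposited it stayed below 0, at -0.12, where the median of all probe sets was -0.13. The deposited Hpd arrays overlapped, at 5305, 6598 and 6112 against 5820 and 7225.

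The tryptophan and aromatic amine group, 4 enzymes of the kynurenine route and Ddc, had a median difference of 0.57 over 5 genes. Of them, 3 (60%) were past unadjusted p 0.05 and higher, as were 5.06% of all probe sets. None was past adjusted p 0.05. The route's entry enzymes are not among the 37: Tdo2 was at 0.02 ± 0.20 (adjusted p = 0.976) and Ido1 at -0.36 ± 0.25 (adjusted p = 0.642). Both probe sets were dim. Tdo2 read 19.1, 11.4 and 6.99 against 10.7 and 12.6, and Ido1 23.3, 8.83 and 10.9 against 29.8 and 15.7. At such readings, whether either gene changed cannot be told. Kynu, kynureninase, read 663, 472 and 677 with C-peptide and 336 and 399.7 without, a difference of 0.68 ± 0.20 (adjusted p = 0.272). Haao, which makes the quinolinate precursor, read 838, 522 and 738 against 446 and 426 (0.64 ± 0.21, adjusted p = 0.338). Kmo, kynurenine monooxygenase of the outer mitochondrial membrane, read 1535, 1327 and 1661 against 968 and 1041 (0.57 ± 0.15, adjusted p = 0.238). These 3 consecutive enzymes separated the groups on all arrays, with C-peptide animal 2 the lowest treated array in each. Of all probe sets, 16.1% separated the groups with C-peptide higher. Acmsd, which diverts the intermediate away from quinolinate and NAD, overlapped, at 2667, 1832 and 2603 against 1919 and 1862 (0.30 ± 0.20, adjusted p = 0.611). Ddc, the decarboxylase that forms dopamine in this segment, read 1312, 814 and 1165 with C-peptide and 764 on both untreated arrays, where it held the same rank (0.48 ± 0.21, adjusted p = 0.451). Its C-peptide animal 2 lay only just above them.

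The promoters of the enzymes were searched because 36 of the 37 differences had the same sign, with RefSeq sequences of build GRCr8 for 33 of the 39 genes. No entry was matched for Dmgdh, Prodh, Acmsd, Bckdha, Mccc2 and Gpt. The 33 genes had 36 promoters and include Aldh4a1 and Acad8, which have no measured difference. A gene was counted if any of its promoters held the motif, while the share of all is by single promoter. In the 250 bases before the start, AAAGTCCA, a core of the motif of HNF4A, a transcription factor of proximal tubule, was found on either strand in 3 of 33 genes (Hgd, Kmo and Agxt2) and in 1.19% of all 33469 promoters. The TATA box TATAAA was found in 7 of 33 genes and 12.9% of promoters, and the CCAAT box CCAAT in 18 of 33 and 34% of promoters, both strands included. A motif of the factor HNF1 was in 0 of 33 and 0.323%. A match is a run of letters, not a shown binding site. The last 120 bases before the start are printed for the 3 genes with the HNF4A letters, since Hgd and Kmo had differences past unadjusted p 0.05 whichever array was left out and Agxt2 did not. Capitals mark the letters of any of the searched motifs. In Hgd (chr11:76643768-76643887, minus strand) and Kmo (chr13:90089401-90089520, plus strand) the HNF4A letters lie on the opposite strand and so read TGGACTTT, and in Kmo they overlap a CCAAT box that reads ATTGG. In Agxt2 (chr2:61063296-61063415, plus strand) they lie on the gene's own strand, after a reversed TATA box.
Hgd: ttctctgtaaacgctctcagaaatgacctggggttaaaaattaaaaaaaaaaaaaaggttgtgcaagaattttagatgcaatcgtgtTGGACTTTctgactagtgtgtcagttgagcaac
Kmo: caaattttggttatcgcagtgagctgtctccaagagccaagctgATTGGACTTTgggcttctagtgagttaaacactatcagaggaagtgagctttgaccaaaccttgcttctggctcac
Agxt2: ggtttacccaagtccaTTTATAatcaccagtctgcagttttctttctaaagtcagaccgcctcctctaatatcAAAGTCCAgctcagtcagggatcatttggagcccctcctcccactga

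Branched-chain amino acids lose their amino group, are oxidised by the branched-chain ketoacid dehydrogenase, and are then broken down by separate mitochondrial steps for leucine, isoleucine and valine. All 9 measured enzymes were above 0, with a median of 0.39. Of them, 4 (44.4%) were past unadjusted p 0.05 and higher, as were 5.06% of all probe sets. All but Bckdha, 8 (88.9%), separated the groups without overlap, as did 16.1% of all probe sets with C-peptide higher. As deposited, Pcca alone did, and no share of all probe sets is given for those values. Ivd, isovaleryl-CoA dehydrogenase of leucine, had the narrowest interval, at 647, 623 and 651 against 441 and 445 (0.52 ± 0.13, adjusted p = 0.213, 95% interval 0.21 to 0.83). After normalisation its arrays within a group lay close together, at 640.5 ± 15.3 (SD, n = 3) and 443 ± 2.61 (SD, n = 2). As deposited they read 483, 700 and 653 against 493 and 486, with C-peptide animal 1 below both untreated arrays.

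The subunits of a branched-chain complex had unequal differences, and whether partners differ from each other was not tested. Of the ketoacid dehydrogenase E1 pair, the beta subunit Bckdhb read 639.9, 675 and 813 against 504 and 484 (0.50 ± 0.16, adjusted p = 0.309). The alpha subunit Bckdha read 528, 475 and 536 against 496 and 430.5, overlapping, at 0.14 ± 0.15 (adjusted p = 0.763). For methylcrotonyl-CoA carboxylase, the next step of leucine after Ivd, Mccc1 read 640.3, 571 and 713 against 448 and 467 (0.47 ± 0.15, adjusted p = 0.324) and Mccc2 559.6, 404 and 538 against 374 and 373 (0.39 ± 0.18, adjusted p = 0.459). In both subunits all C-peptide arrays were the higher ones. Propionyl-CoA carboxylase, where isoleucine and valine converge with odd-chain fat, had Pcca at 684, 539 and 635 against 423 and 466 (0.46 ± 0.16, adjusted p = 0.353) and Pccb at 1152, 1077 and 1185 against 1008 and 941 (0.22 ± 0.14, adjusted p = 0.597). Of the valine steps, Hibadh, the later one, read 2254, 2125 and 2264 against 1981 and 1729 (0.26 ± 0.14, adjusted p = 0.543). Hibch, the hydrolase before it, read 198, 194 and 206 against 189 and 191, a difference of 0.06 ± 0.13 (adjusted p = 0.897) whose 95% interval of -0.25 to 0.38 leaves out a 1.5-fold rise. As deposited, relative to the median probe set, Hibch was at -0.03.

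**Figure D2:**
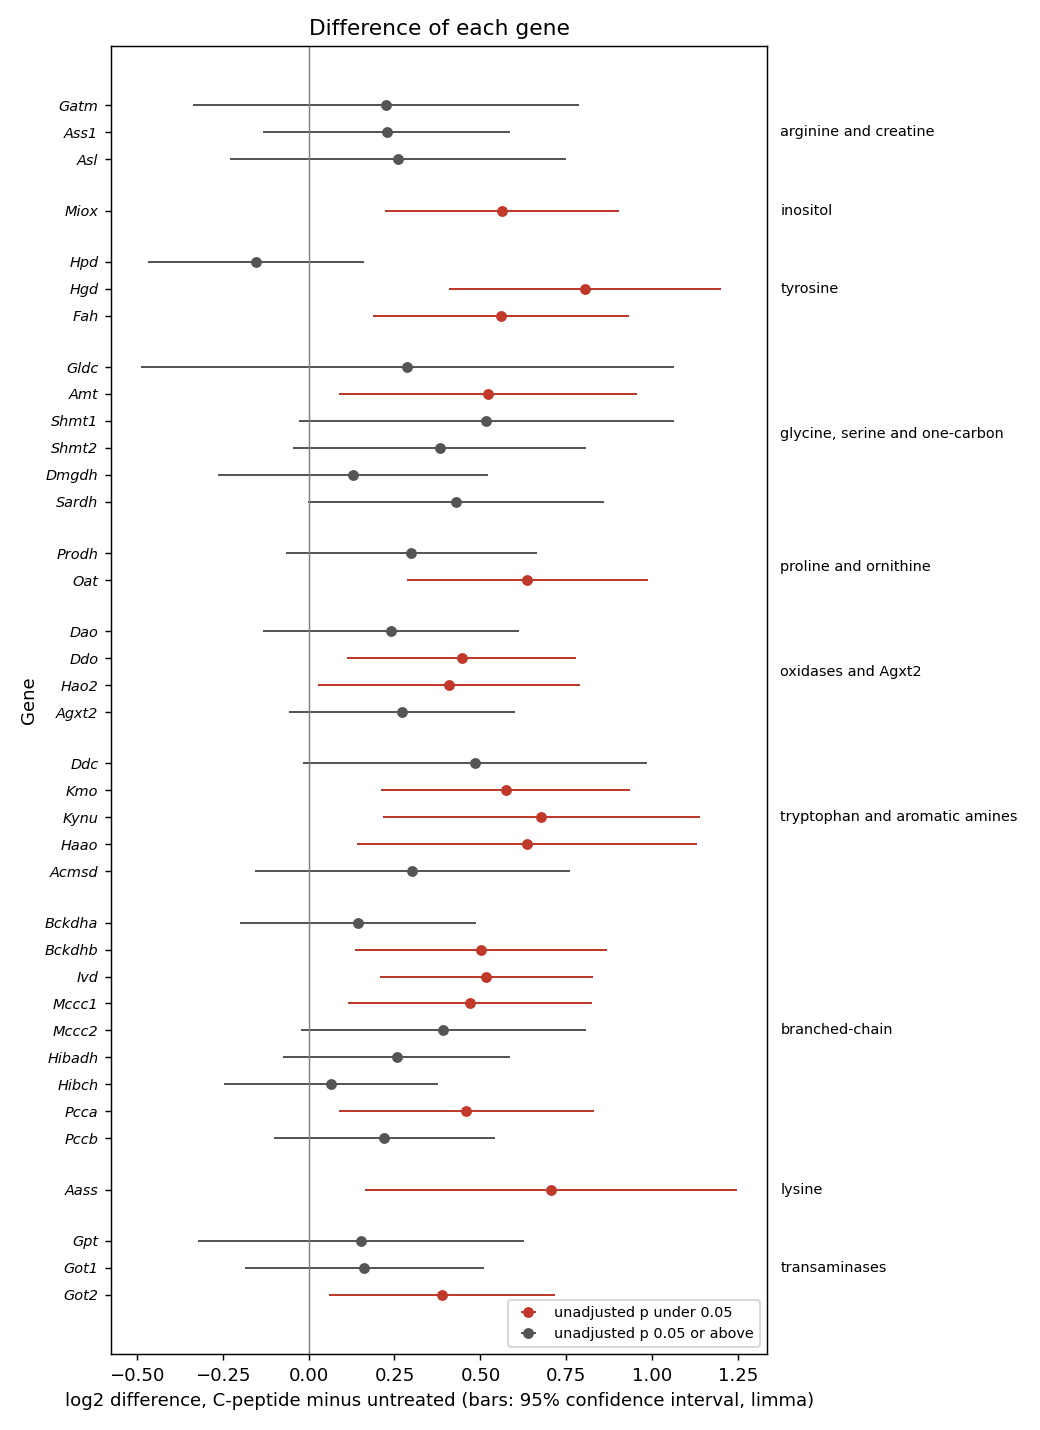
Log2 difference, C-peptide minus untreated, of each of the 37 enzymes (x axis), with bars for the 95% confidence interval from limma. Red points are the 16 genes past unadjusted p 0.05, from 0.39 for Got2 to 0.81 for Hgd, none of them past adjusted p 0.05, and Hpd is the only point below 0.

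Lysine and ornithine enzymes were among the larger differences. Aass, the enzyme with both first steps of mitochondrial lysine breakdown, read 2875, 1798 and 2944 with C-peptide and 1530.0 and 1498 untreated. C-peptide animal 2 was closer to the untreated arrays than to the other two treated ones, and the difference was 0.71 ± 0.23 (adjusted p = 0.332), 0.93 without that array. Oat, ornithine aminotransferase, which links ornithine to proline and glutamate, read 1088, 889 and 1012 against 617 and 649 (0.64 ± 0.15, adjusted p = 0.188), with every treated array above both untreated ones. Prodh, proline dehydrogenase, read 604, 616 and 729 against 562 and 488, without overlap (0.30 ± 0.16, adjusted p = 0.519).

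Glycine, serine and one-carbon enzymes were all above 0, with a median of 0.41 over 6 genes. Of these, 1 (16.7%) was past unadjusted p 0.05, where 5.06% of all probe sets were higher. That gene was Amt, the aminomethyltransferase of the glycine cleavage system, at 520.1, 389 and 544 against 353 and 307 (0.52 ± 0.18, adjusted p = 0.364). A dimmer probe set of Amt was at 0.38 ± 0.22 (adjusted p = 0.565). Its partner Gldc, the glycine decarboxylase, had the widest spread of the 37, at 675, 342 and 806 against 443 and 489.8 (0.29 ± 0.33, adjusted p = 0.79). C-peptide animal 2 was the lowest of all 5 arrays for Gldc and the other treated arrays the highest. Without that array Gldc was at 0.65, and without C-peptide animal 3 at 0.04.

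Serine hydroxymethyltransferase, which passes a carbon from serine to folate, is encoded by a cytosolic and a mitochondrial gene. The cytosolic Shmt1 read 507, 285 and 406 against 268 and 266 (0.52 ± 0.23, adjusted p = 0.459). Mitochondrial Shmt2 read 506, 371 and 519 against 359 and 340.1 (0.38 ± 0.18, adjusted p = 0.48). In both, C-peptide animal 2 sat just above the untreated arrays. Sardh, which turns sarcosine into glycine, read 212, 149 and 171 against 139 and 114 (0.43 ± 0.18, adjusted p = 0.441), and Dmgdh, which makes that sarcosine, 397, 380.4 and 504 against 402 and 370.3, overlapping (0.13 ± 0.17, adjusted p = 0.815).

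The peroxisomal oxidases and Agxt2 had a median of 0.34 over 4 genes. Ddo, which oxidises D-aspartate, was the 1 enzyme of the 37 below the median probe set, at 61.4, 52.9 and 62.9 against 37.7 and 40.4 (0.45 ± 0.14, adjusted p = 0.317). Hao2, a hydroxy acid oxidase, read 4549.6, 4632 and 5741 against 3534 and 3923 (0.41 ± 0.16, adjusted p = 0.413). Groups did not overlap in either gene. Dao, the oxidase of neutral D-amino acids, read 1579, 1312 and 1589 against 1354 and 1167, with C-peptide animal 2 between the untreated arrays (0.24 ± 0.16, adjusted p = 0.623). Agxt2, a mitochondrial aminotransferase that also clears dimethylarginines, read 2703, 2881 and 3068 against 2462 and 2307 (0.27 ± 0.14, adjusted p = 0.515). Miox, which opens myo-inositol in the proximal tubule and is on the list although its substrate is no amino acid, read 3827, 3514 and 4006 against 2718 and 2398. All its treated arrays were above both untreated ones, at 0.56 ± 0.15 (adjusted p = 0.217).

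Arginine and creatine enzymes and the transaminases had the smallest medians, 0.23 and 0.16. Gatm, which makes guanidinoacetate, read 2606, 2105 and 3741 against 2422 and 2257, with C-peptide animal 2 the lowest of all 5 (0.23 ± 0.24, adjusted p = 0.773). Ass1 and Asl, which build arginine from citrulline, were at 0.23 ± 0.15 (adjusted p = 0.63) and 0.26 ± 0.21 (adjusted p = 0.692). Their arrays read 4195, 3635 and 4137 against 3695 and 3127 for Ass1 and 1051, 651 and 820.0 against 691 and 680.5 for Asl. In all 3 genes of this route the groups overlapped and 0 were past unadjusted p 0.05. Their 95% intervals, -0.33 to 0.79, -0.13 to 0.59 and -0.23 to 0.75, include both no difference and a 1.5-fold rise.

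Of the transaminases, mitochondrial Got2 of the aspartate shuttle read 1536, 1566 and 1551 against 1267 and 1102, with 3 nearly equal treated arrays (0.39 ± 0.14, adjusted p = 0.374). As deposited Got2 read 1232, 1689 and 1540 against 1318 and 1240, with C-peptide animal 1 below both untreated arrays. Its cytosolic counterpart Got1 read 755, 803 and 895 against 768 and 689, overlapping (0.16 ± 0.15, adjusted p = 0.734). Gpt, alanine aminotransferase, had untreated arrays that lay far apart, at 152, 205 and 181 against 131 and 192 (0.15 ± 0.20, adjusted p = 0.823). Without untreated animal 1 the difference of Gpt was -0.10.

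By compartment, the median difference was 0.39 over 21 mitochondrial enzymes, 0.48 over 13 cytosolic and 0.41 over 3 peroxisomal ones. Past unadjusted p 0.05 were 9, 5 and 2 of them (42.9%, 38.5% and 66.7%), all higher, against 5.06% of all probe sets. These medians lie within the range of the single pathways, from 0.16 for transaminases to 0.57 for the tryptophan enzymes among pathways with 3 or more measured genes.

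**Figure D3:**
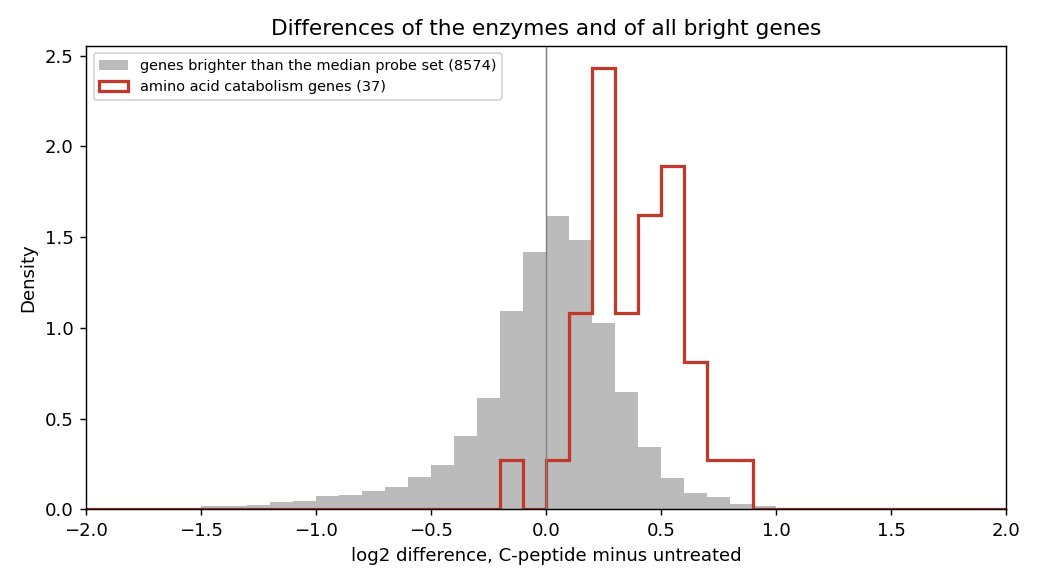
Density of the log2 difference, C-peptide minus untreated, for the 37 enzymes (red outline) and for the 8574 genes brighter than the median probe set (grey), in steps of 0.1; 4 of the grey genes lie beyond the axis. The grey genes centre on a median of 0.03 with a tail to the left, and the enzymes on a median of 0.39.

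Another 84 enzymes of amino acid metabolism, in 5 lists that share no gene with the 37, gave 72 measured genes. None passed adjusted p 0.05. At unadjusted p under 0.05, 21 were higher (29.2%) and 1 lower, against 5.06% and 6.31% of all probe sets. Above 0 were 60 of the 72 (83.3%), against 53.6% of all probe sets. The median difference of the 72 was 0.27. The lists' medians were 0.26 over 12 branched-chain, 0.22 over 10 aromatic, 0.34 over 21 glycine, serine and methionine, 0.19 over 18 arginine, proline, glutamine and histidine, and 0.32 over 11 lysine and sulfur genes. Ppm1k, the phosphatase that activates the branched-chain dehydrogenase, read 796, 881 and 796 against 538 and 541 (0.60 ± 0.14, adjusted p = 0.184). Kyat1, a kynurenine aminotransferase, was at 0.64 ± 0.16 (adjusted p = 0.206), and Hoga1, of hydroxyproline breakdown, at 0.62 ± 0.15 (adjusted p = 0.197). Cdo1, cysteine dioxygenase, read 364, 387 and 408 against 229 and 258 (0.63 ± 0.14, adjusted p = 0.174). Aldh9a1, of carnitine synthesis and polyamine breakdown, was at 0.53 ± 0.16 (adjusted p = 0.298).

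The 1 lower gene was Sqor, which oxidises hydrogen sulfide in mitochondria, at 205, 223 and 195 against 353 and 388 (-0.79 ± 0.14, adjusted p = 0.126). All its treated arrays lay below both untreated arrays. The lowest p on the lower side of the other lists belonged to Auh (-0.07), Ido1 (-0.36), Mat1a (-0.18) and Arg1 (-0.22), with adjusted p from 0.642 to 0.894. Of these, Ido1 was dim on every array, at 29.8 or less.

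The arrays did not behave alike within the C-peptide group. Taken as the mean log2 value of the 37 enzymes minus its mean over the 5 arrays, the C-peptide arrays stood at 0.22, -0.04 and 0.28 and the untreated ones at -0.21 and -0.24. C-peptide animal 2 was thus about midway between its group and the untreated arrays. It was the lowest treated array in 29 of 37 enzymes and lay below the higher untreated array in 9, against 4 for animal 1 and 2 for animal 3. Which array was lowest depended on normalisation. As deposited, animal 2 was the lowest treated array only in Asl, Gldc, Shmt1, Ddc, Haao, Acmsd and Aass. In the other enzymes it was animal 1, whose array median was 60.1 against 95.9 for animal 2. Without C-peptide animal 2 the median difference of the enzymes was 0.54.

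Of 8 marker lists, that of the proximal tubule had the same order of groups as the enzymes, with no overlap in the mean of the list. Its markers stood at 0.28, -0.02 and 0.40 with C-peptide and -0.21 and -0.44 untreated, with a median difference of 0.47, 15 of 15 above 0 and 8 past unadjusted p 0.05. Their summed intensity was 28235 to 37574 with C-peptide and 21072 to 24778 without. Singly, 9 of these 15 markers (60%) separated the groups with C-peptide higher, as did 16.1% of all probe sets. Of all probe sets, 53.6% were above 0, and 5.06% were higher and 6.31% lower at unadjusted p under 0.05. Endothelial markers ran the other way, at -0.55, -0.06 and -0.66 against 0.77 and 0.50, with a median of -1.15, 11 of 11 below 0, 10 past unadjusted p 0.05, and a summed intensity of 8052 to 12368 against 19478 to 22210.0. Immune cell markers stood at -0.29, 0.05 and -0.28 against 0.26 and 0.26, with a median of -0.45 (11 of 12 below 0, summed intensity 5912 to 8127 against 8545 to 9534). Podocyte markers had a median of -0.64 (4 of 5 below 0, 1445 to 2434 against 3775 to 4596), and most of that sum was Podxl (-1.32) and Clic5 (-1.22), while Synpo was at -0.64, Wt1 at -0.17 and Nphs1, which encodes nephrin, at 0.11. In 3 of the other lists the groups overlapped, and stromal cell markers were lower on each C-peptide array. Thick limb and distal markers stood at -0.29, 0.36 and 0.22 against -0.09 and -0.20 (median 0.31), and collecting duct markers at -0.26, 0.27 and 0.18 against 0.01 and -0.21 (median 0.21). Erythroid markers stood at 0.61, 0.12 and -0.80 against 0.27 and -0.20 (median -0.06), and stromal cell markers at -0.11, 0.01 and -0.01 against 0.09 and 0.02 (median -0.12). No gene of these marker lists was at 0 on any array as deposited. The part that the makeup of the preparation has in the enzymes' differences was not tested.

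**Figure D4:**
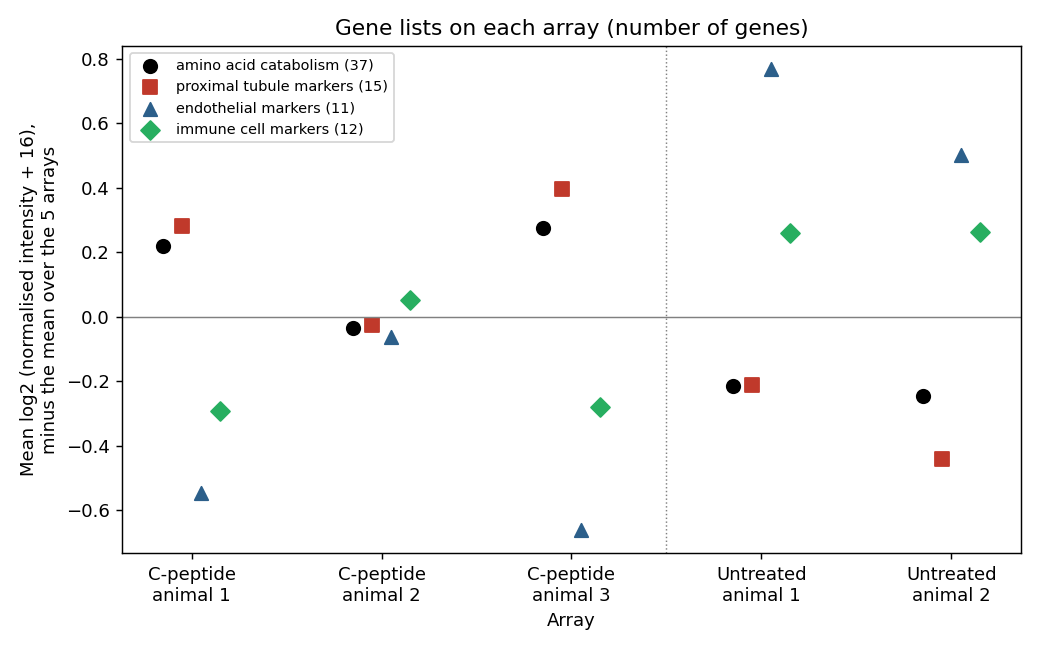
Mean log2(normalised intensity + 16) of the 37 enzymes and of markers of proximal tubule, endothelial and immune cells on each array, minus the mean of that list over the 5 arrays. The enzymes and the proximal tubule markers are highest on C-peptide animals 1 and 3 and lowest on the untreated arrays, the endothelial markers are the reverse, and C-peptide animal 2 lies near 0 in all 4 lists.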

How the data were processed

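The series holds 5 arrays of total RNA, 3 from C-peptide-treated and 2 from untreated proximal tubular cells, grouped by the labels. Per the submitters' processing notes, the authors made the deposited intensity values, which are linear, by PLIER in Affymetrix Expression Console 1.1; the notes give no background correction, scaling or filter. The deposited array medians differed, so log2(intensity + 16) values were quantile-normalised, and the groups were fitted in limma 3.58.1 (R 4.3.3; lmFit, eBayes), two-sided, with Benjamini-Hochberg adjustment over 29215 probe sets. The fit was tested on simulated arrays with independent noise for each probe set, so shifts shared by many genes were not covered. Every column belonged to a sample. The number of arrays limits precision.

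Gene names came from the platform's annotation: 15310 probe sets had 1 gene symbol, 323 several and 13582 none. A gene took its brightest 1-symbol probe set; Amt alone of the enzymes had a second. The rule for named genes took every enzyme, and from each further list the gene with the smallest p in each direction. Members, pathways and lists were chosen with earlier results of these data known. No array coordinates are printed; promoter coordinates are of GRCr8. Other settings tried were no normalisation, median centring, pseudocounts of 1 and 64, 2 probe-set filters, a trended and robust prior, array weights, probe-set means, an animal block and leaving out each array.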

Additional observations from a re-analysis of the deposited data

How the results depend on the processing

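Of the 15 alternatives, none that kept both untreated arrays had an enzyme past adjusted p 0.05 lower. The count higher was 1 (Hgd) when probe sets brighter than the median alone, or those with 1 gene symbol alone, were tested. These 2 settings refit limma on fewer probe sets, which changes its variance estimates as well as the number of tests. They called 396 of 14607 and 341 of 15310, 77 and 63 of them higher. The count higher at unadjusted p under 0.05, 16 after quantile normalisation, was 1 as deposited, where 0.661% of all probe sets were higher. With the animal number as a replicate block it was 9, where 3.7% were. Over fits without 1 C-peptide array it ranged from 9 to 21, where 3.89% to 5.38% were. The shared animal number marks no stated pairing, and deviations of same-numbered arrays correlated at -0.03 and 0.01. The count at unadjusted p was 15 to 24 under the other alternatives that kept every array, which include pseudocounts of 1 (15) and 64 (24). The median difference of the enzymes ranged from 0.33 to 0.54 without 1 array, that of branched-chain enzymes from 0.30 to 0.54, of tyrosine enzymes from 0.48 to 0.67 and of transaminases from 0.14 to 0.28. Fits without 1 untreated array leave 1, which is assumed to vary like the treated arrays. The cause of these shifts was not tested. Signs turned for Hpd (centred), for Gpt (without untreated animal 1) and, as deposited, for Dmgdh, Bckdha, Hibch, Gpt and Got1; relative to the deposited median of all probe sets, they turned for Hpd and Hibch. No other enzyme changed sign. Among all probe sets, 0 passed adjusted p 0.05 in limma after quantile normalisation (3321 at unadjusted p under 0.05) and in 7 of the 15 alternatives: array weights, probe-set means and the fits without 1 array. The count was 52 as deposited, 29 after centring, 1 and 121 with pseudocounts of 1 and 64, 208 with a trended and robust prior and 3 with the block, beside the 396 and 341 above.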
